A study of Mus musculus with 8 samples.

Results

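Interferon-stimulated genes are the genes that a cell switches on after interferon binds its receptors, and 46 of them were followed across 4 groups of mouse embryonic stem cell cultures. The genes were taken by name, as every probe whose gene name in the scanner files was among the 46. All 46 names were on the array, on 64 of its 55583 probes, out of 34736 gene names in all. The list was drawn up with the difference between the genotypes at day 6 of these same arrays known, so that difference is given here as a description without a test.

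Type I and type III interferons signal through receptors that carry the kinases Jak1 and Tyk2. The kinases activate a complex that holds Stat2 and Irf9 and binds the interferon-stimulated response element in promoters, while interferon gamma acts at the gamma-activated site. The induced proteins sense foreign nucleic acid, block viral replication and present antigen, and several of them (Irf7, Stat2 and Irf9 among them) feed back on the pathway. Pluripotent stem cells are known for making little interferon and for a weak response to it, and this response grows as the cells differentiate.

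The cultures were wild type or heterozygous for the R141C mutation of Nkx2-5, a homeodomain factor of the early heart, and RNA was taken from undifferentiated cells at day 0 or at day 6 of differentiation. For day 6, embryoid bodies were formed in hanging drops without LIF for 2 days, kept in suspension for 3 days and plated on gelatin at day 5 for 24 hours. There were 2 cultures in each of the 4 groups, called wild type day 0, R141C day 0, wild type day 6 and R141C day 6, and each was labelled with Cy3 and read on an Agilent array of 1 colour. The study describes the 2 as biological replicates. The labels name no line, strain or second clone for a genotype, so what belongs to the mutation and what belongs to the line cannot be told apart, and p-values measure only the spread between these cultures.

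All 8 arrays lay on 1 slide and were read in 1 scan. The 2 days differed in the first position number of the slide barcode and the 2 genotypes in the second. Which number is a row and which a column is not stated. Position on the slide and group therefore cannot be told apart. Between 30989 and 39185 probes per array were well above background, with the fewest at wild type day 6. Replicates correlated at 0.982 to 0.994 across genes, which are not independent of each other. The R141C genotype comes from the labels, since an expression probe does not show a point mutation. All 7 markers of undifferentiated cells, Pou5f1 and Nanog among them, were lower at day 6 than at day 0 in both genotypes. The fall had an adjusted p under 0.05 (limma) for 7 in wild type and 6 in R141C. Of all genes, 12.9% and 8.03% fell at that level.

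Signals are log2 of the processed signal minus the 75th percentile of the array, so that 0 is the level of that percentile, and a gene is read from its brightest probe. A signal cannot be set against that of another gene, because probes differ in how well they bind. The test took in genes with this probe well above background on each of the 2 arrays in some group, 25892 genes in all and 43 of the 46. Oas1g and Mx1 were above background on 0 arrays and Ifi44 on 1 array, and these 3 were not tested. Of the 43, 38 were above background on all 8 arrays, and the other 5 were Oas2 on 7, Oasl1 and Ifit1 on 6, Rsad2 on 4 and Irf7 on 2. Whether probes of close relatives, such as Oas1a, Oas1b and Oas1g or the 3 Ifitm genes, also bind each other's transcripts was not tested.

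The response element is a sequence that some of these genes share. RefSeq promoters (GRCm38.p6, 250 bases before to 50 bases after the annotated start) were at hand for 35 of the 46 genes, in 43 windows of 300 bases. The core of the response element, GAAA, any 2 bases and GAAA again, read on both strands, was in 17 of the 43 windows (39.5%), against 3.44% of 32851 windows of the same length for all genes. The gamma-activated site, TTC, any 3 bases and GAA, also on both strands, was in 10 of the 43 windows (23.3%), against 8.3% of all windows. The promoters below belong to the 4 genes with a core and the largest day 6 difference between the genotypes, and each runs 5′ to 3′ on the strand of its gene up to the base before the start. Capitals mark the core, which reads TTTC, any 2 bases and TTTC where it lies on the other strand. The stretches lie at chr19:34640759-34640888 (plus strand) for Ifit1, chr19:34583353-34583528 (plus) for Ifit3, chr4:156200819-156200948 (minus) for Isg15 and chr3:142620533-142620662 (plus) for Gbp2.
Ifit1: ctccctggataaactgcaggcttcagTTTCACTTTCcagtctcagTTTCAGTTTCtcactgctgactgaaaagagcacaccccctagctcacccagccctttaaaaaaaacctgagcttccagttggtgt
Ifit3: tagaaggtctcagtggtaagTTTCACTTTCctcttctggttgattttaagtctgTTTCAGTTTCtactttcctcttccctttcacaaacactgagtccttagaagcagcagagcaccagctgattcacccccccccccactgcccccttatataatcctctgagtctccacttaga
Isg15: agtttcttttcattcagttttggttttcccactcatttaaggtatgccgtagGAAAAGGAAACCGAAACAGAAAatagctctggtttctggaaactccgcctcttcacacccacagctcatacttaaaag
Gbp2: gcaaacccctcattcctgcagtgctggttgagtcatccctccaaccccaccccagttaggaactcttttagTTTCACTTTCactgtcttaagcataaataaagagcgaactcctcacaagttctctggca
Ifit1 and Ifit3 each hold 2 separate cores on the other strand, Isg15 holds 3 that overlap in 1 run, and Gbp2 holds 1.

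**Figure D1:**
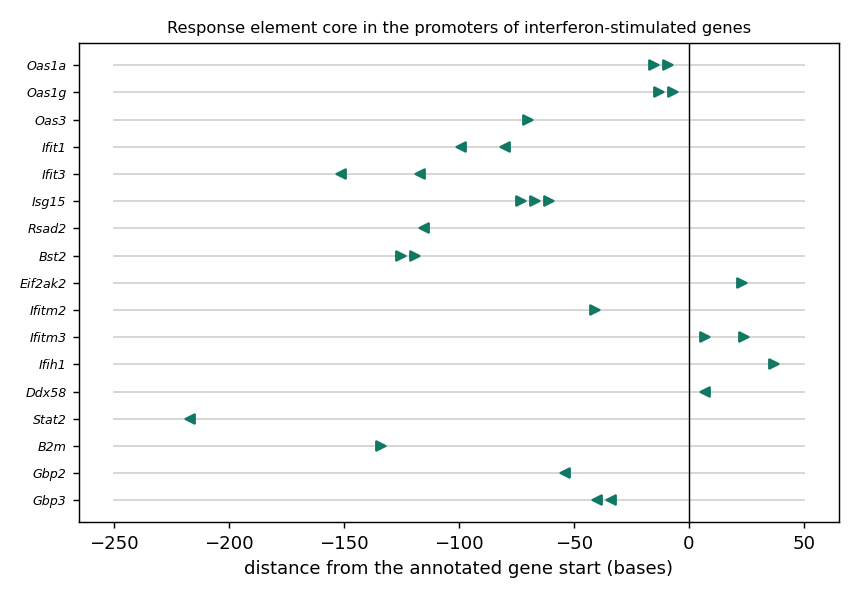
Positions of the response element core in the promoters of the 17 interferon-stimulated genes that hold it, in bases from the annotated start (vertical line); grey lines show the window searched, and triangles point right for a match on the gene's strand and left for a match on the other strand. Matches of Isg15, Ifit1, Ifit3 and Gbp2 lie before the start, and those of Ifitm3, Ifih1, Eif2ak2 and Ddx58 lie after it.

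At day 6, R141C cultures held more RNA of most interferon-stimulated genes than wild-type cultures. The difference was positive for 39 of the 43 genes (90.7%), where it was positive for 58.1% of all genes. Its median was 1.13 on the log2 scale, against 0.07 over all genes tested. In 35 of the 43 (81.4%) both R141C arrays lay above both wild-type arrays, where 27.8% of all genes did so. Irf7 is among the 39 and the 35, although it entered the test only through R141C day 6. The largest difference was 8.29-fold, for Ifi27, followed by 7.54-fold for Rtp4; without replicate 1 of R141C at day 6 these were 2.24 and 2.23 on the log2 scale, down from 3.05 and 2.92. This is the contrast with which the genes were chosen, and in bulk cultures a change in the number of cells of a type and a change in RNA per cell cannot be told apart. The exceptions were Isg20, with both R141C arrays below both wild-type arrays as in 16.5% of all genes (on its brightest probe; its other probe lay the other way), and 7 genes whose groups overlapped (Oas3, Ifit2, Rsad2, Eif2ak2, Dhx58, Stat2 and B2m).

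The 2 R141C cultures at day 6 were not alike. Replicate 1 lay above replicate 2 in 31 of the 43 genes (72.1%), where 57.2% of all genes did so. In 14 of them it lay above by more than 1 on the log2 scale (32.6%), where 6.34% of all genes did so. Replicate 2 taken alone lay above both wild-type arrays in 37 genes and replicate 1 in 38, where 43.0% and 50.6% of all genes did so. The median signal over the 43 genes was 1.66 in replicate 1 and 0.64 in replicate 2 of R141C at day 6, against -0.25 and -0.40 in wild type. Without replicate 1 of R141C the day 6 difference was 1.28 for Zbp1, 1.32 for Psmb8, 1.27 for Isg15, 1.2 for Ifih1 and 1.05 for Gbp3, and the median over the 43 genes was 0.95.

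At day 0, before differentiation, the difference lay in the same direction but was smaller and passed no test. None of the 43 genes had an adjusted p under 0.05 (limma; 0% of all genes did), and 10 were higher at an unadjusted p under 0.05, as were 594 of the 25892 genes; none of the 43 was lower at that level. The difference was positive for 35 of the 43 (81.4%), where it was positive for 50.6% of all genes. Its median was 0.46, against 0.0046 over all genes. Both R141C arrays lay above both wild-type arrays in 19 (44.2%), where 14.5% of all genes did so. Rsad2 and Ifitm2 lay the other way round, as did 14.3% of all genes. Rsad2, and Irf7 among the 35, were above background on none of the day 0 arrays. No direction is read from their day 0 values. The smallest adjusted p was 0.785, for Rtp4. These arrays share none with the day 6 contrast, although the day 0 value of Oasl2 was known when the genes were chosen. Median signals over the 43 genes at day 0 were 0.03 and 0.49 in wild type and 0.79 and 0.99 in R141C.

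Side by side, 32 of the 43 (74.4%) had a positive difference at day 0 and at day 6, where 30.6% of all genes did so. In 18 (41.9%) this held without overlap at both days, where it held in 5.04% of all genes. Both counts use the day 6 values that chose the genes, so these shares are a description and support no difference at both days. Oas3 was the only gene of the 43 with a negative difference at both days. In 33 of the 43 (76.7%) the difference was larger at day 6, whose values chose the genes, than at day 0, as in 58.0% of all genes. Oas2, Rsad2, Ifitm2, Ifitm3, Oasl1, Oas1b and Adar had a negative difference at day 0 and a positive one at day 6. The day 0 values of Rsad2, and of Irf7 among the 32, were not above background.

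**Figure D2:**
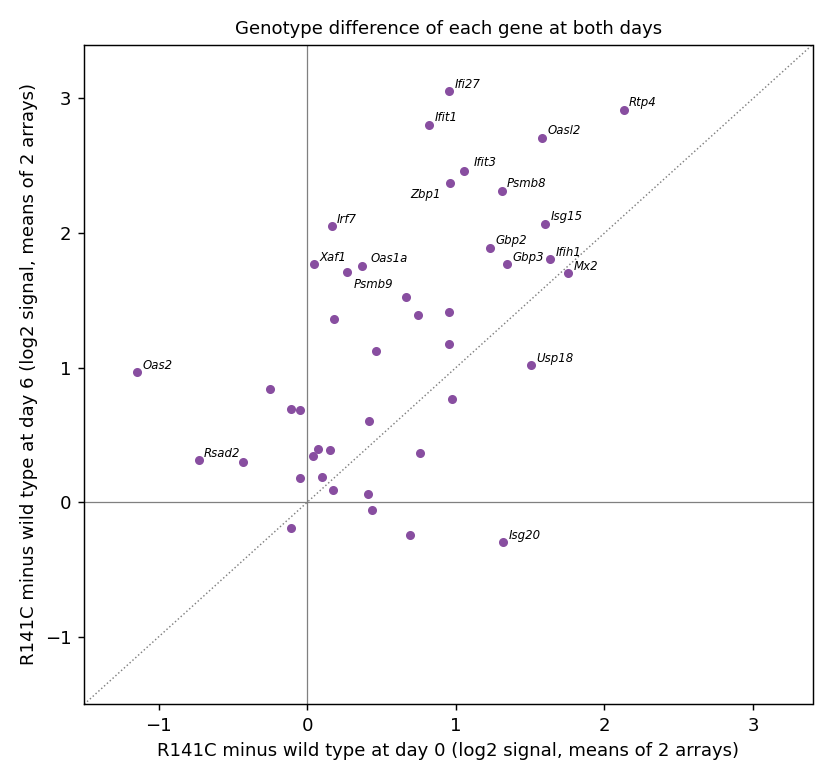
Each point is 1 of the 43 genes, with the difference between R141C and wild type (log2 signal, means of 2 arrays) at day 0 on the horizontal axis and at day 6 on the vertical axis; the dotted line marks equal differences. Rtp4 lies farthest right at 2.13, Ifi27 highest at 3.05, and Isg20 lies at 1.32 on the horizontal and -0.30 on the vertical axis.

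From day 0 to day 6 some of the genes rose and others fell. Rises in both genotypes and falls in R141C were about as frequent as among all genes. Falls in wild type were more frequent, with 10 of 43 against 12.9% of all genes. In wild type, 5 of the 43 rose (Usp18, Lgals3bp, Rsad2, Mx2 and Isg20) and 10 fell (Oas2, Xaf1, Oasl1, Gbp2, Oas1a, Ifitm3, Ddx58, Gbp3, Parp14 and Adar) at an adjusted p under 0.05 (limma, Benjamini-Hochberg over all genes). These are 15 of 43, where 24% of all genes passed, 11% rising and 12.9% falling. In R141C, 4 rose (Lgals3bp, Rsad2, Usp18 and Ifi27) and 4 fell (Oasl1, Oas2, Gbp2 and Ddx58), where 15.6% of all genes passed, 7.6% rising and 8.03% falling. Rsad2 entered the test only through the day 6 groups in which it is high, so its place among the 5 and the 4 supports nothing. The median change was -0.47 in wild type (-0.12 over all genes) and -0.16 in R141C (-0.03 over all genes). Whether the changes differed between the genotypes was not tested, and each shares its day 6 arrays with the contrast that chose the genes.

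The wild-type count rests on single arrays. It was 8 without replicate 1 at day 0, 7 without replicate 1 at day 6 and 6 without replicate 2 at day 6, and Mx2, Isg20, Adar, Gbp3 and Parp14 lost their call without any 1 of the 4 wild-type arrays. Oas2, Usp18, Oasl1, Lgals3bp, Gbp2 and Ddx58 kept theirs with each of the 8 arrays left out in turn. In R141C the same held for Lgals3bp, Oasl1, Gbp2 and Ddx58, and the median turned to 0.35 without replicate 2 of R141C at day 6.

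**Figure D3:**
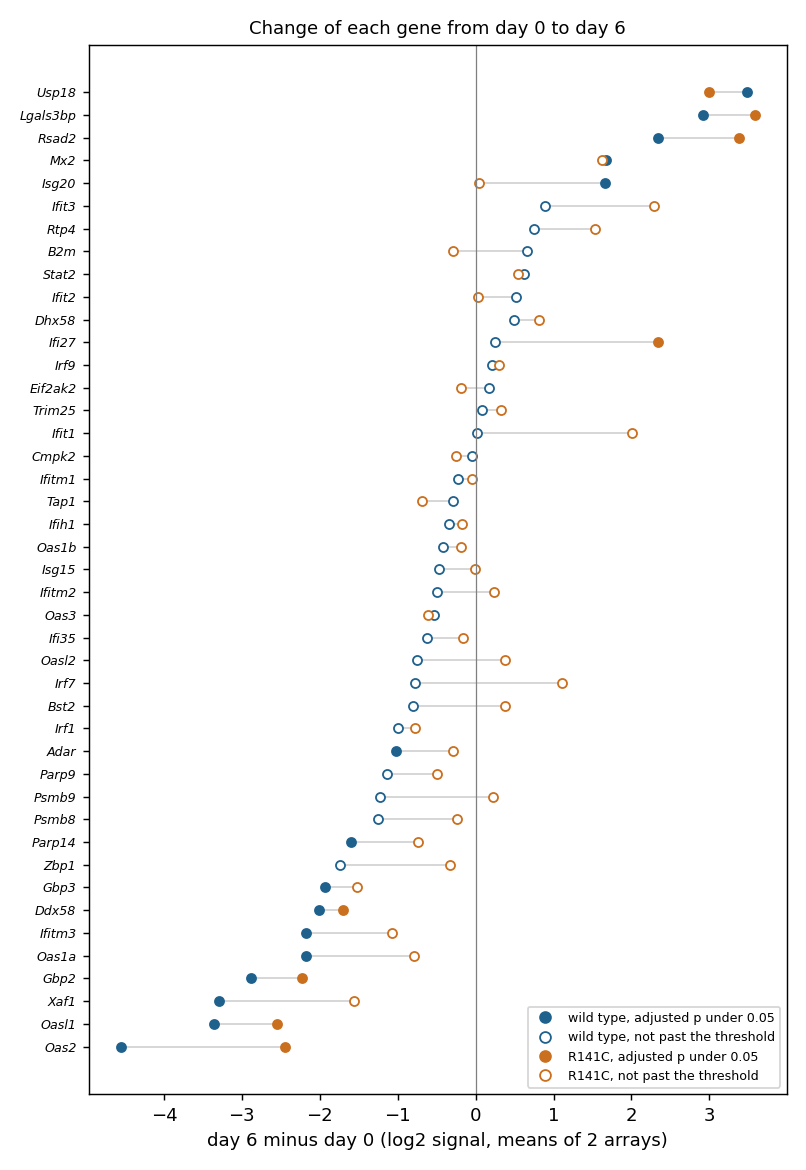
Change of each of the 43 genes from day 0 to day 6 (log2 signal, means of 2 arrays) in wild type (blue) and R141C (orange), with filled points for an adjusted p under 0.05 (limma), ordered by the change in wild type. Usp18 and Lgals3bp lie at the rising end and Oas2, Oasl1, Xaf1 and Gbp2 at the falling end.

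The 2'-5' oligoadenylate synthetases make a messenger that activates RNase L, and 7 genes of this family were listed (Oas1a, Oas1b, Oas1g, Oas2, Oas3, Oasl1 and Oasl2). On their brightest probes all 6 tested members were lower at day 6 than at day 0 in wild type without overlap, as were 41.5% of all genes. Of the 6, 3 passed the test. For Oas1b this depends on the probe. Another of its probes, above background on all 8 arrays, changed by 0.11 in wild type, with day 6 above day 0 without overlap. Its remaining probe changed by -0.42. Oas2 (probe at chr5:121180343-121180402, mm9) had a signal of -0.73 and 0.49 in replicates 1 and 2 of wild type day 0, -0.56 and -1.96 in R141C day 0, -4.33 and -5.02 in wild type day 6, and -3.23 and -4.18 in R141C day 6. Every day 6 array thus lay below every day 0 array. Oas2 fell by 4.55 ± 0.62 (SE) in wild type (adjusted p = 0.00400, limma) and by 2.45 ± 0.62 in R141C (adjusted p = 0.0436, limma), where the call was lost with several settings and, without replicate 1 of R141C day 0, the fall was 1.74 (adjusted p = 0.192, limma). At wild type day 6, 1 of the 2 arrays was above background.

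Oasl1, a relative without synthetase activity that restrains translation of Irf7, had signals of -2.15 and -2.46 in wild type day 0, -2.06 and -2.76 in R141C day 0, -5.89 and -5.43 in wild type day 6, and -5.04 and -4.88 in R141C day 6. Day 0 lay above day 6 on all arrays, with no separation of the genotypes at day 0. On the wild-type day 6 arrays the probe was not above background, so the fall in wild type was at least 8.36-fold (adjusted p = 0.000983, limma). This bound sets the bright group's mean against the higher of the dim probe's own signal and the lowest signal above background on each array. In R141C the fall was 5.84-fold, or 2.54 ± 0.30 (SE) on the log2 scale (adjusted p = 0.00374, limma).

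Oas1a showed 3.32 and 1.93 in wild type day 0, 3.21 and 2.78 in R141C day 0, 0.56 and 0.34 in wild type day 6, and 2.65 and 1.77 in R141C day 6. The wild-type day 6 cultures stood below all others. Its fall in wild type was 2.18 ± 0.50 (SE; adjusted p = 0.0228, limma), and 1.48 without replicate 1 of wild type day 0 (adjusted p = 0.0713, limma). The call was also lost without replicate 1 (adjusted p = 0.0859) or replicate 2 (adjusted p = 0.117) of wild type day 6 in limma. In R141C the change was -0.79 ± 0.50 (SE; adjusted p = 0.338, limma).

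Oasl2, a relative with ubiquitin-like domains, separated by genotype at both days. Its signals were -1.45 and -0.67 in wild type day 0, 0.14 and 0.91 in R141C day 0, -1.63 and -1.98 in wild type day 6, and 1.66 and 0.14 in R141C day 6. All 4 R141C arrays were above all 4 wild-type arrays, by 1.58 ± 0.55 (SE) at day 0 (adjusted p = 0.999, limma) and by 2.71 ± 0.55 at day 6. Oas1b, among the brightest probes of the set, lay between 4.77 and 5.32 on all arrays. Its 2 genotypes differed by 0.18 ± 0.19 (SE) at day 6 and overlapped at day 0. Oas3, the longest synthetase, differed by -0.19 ± 0.31 at day 6 with overlapping groups.

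Ifit proteins bind viral RNA ends and hold back translation. Ifit1 (probe at chr19:34723796-34723855, mm9) had signals of -6.38 and -6.0 in wild type day 0, -5.74 and -5.01 in R141C day 0, -5.28 and -7.07 in wild type day 6, and -3.03 and -3.71 in R141C day 6. R141C day 6 stood above all other groups, while 1 of 2 wild-type arrays was above background on each day. The day 6 difference was 2.80 ± 0.59 (SE), and 1.12 with the normexp background correction in place of the scanner's own. With day, R141C cultures changed by 2.0 ± 0.59 (adjusted p = 0.0682, limma; a call with normexp).

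Ifit3 gave -5.67 and -5.07 in wild type day 0, -5.52 and -3.11 in R141C day 0, -4.18 and -4.80 in wild type day 6, and -2.09 and -1.97 in R141C day 6. The 2 R141C arrays at day 0 lay far apart and overlapped wild type, whereas at day 6 they lay close together above it. The day 6 difference was 2.46 ± 0.72 (SE), or 1.62 with normexp. Ifit2 differed between the genotypes by -0.06 ± 0.41 (SE) at day 6 and 0.44 ± 0.41 at day 0, with overlap on both days. Of the 3 Ifit genes, none passed the test for a change with day in either genotype.

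Isg15 is a ubiquitin-like protein that is attached to other proteins, and Usp18 removes it and also damps the type I receptor. Isg15 (probe at chr4:155573649-155573708, mm9) showed 1.24 and 1.47 in wild type day 0, 2.57 and 3.34 in R141C day 0, 1.14 and 0.63 in wild type day 6, and 3.75 and 2.15 in R141C day 6. R141C was above wild type on every array, by 1.6 ± 0.54 (SE) at day 0 (adjusted p = 0.999, limma) and by 2.07 ± 0.54 at day 6. Between the days the R141C groups overlapped, with a difference of -0.0046 ± 0.54.

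Usp18 moved with the day in both genotypes. Its signals were -4.38 and -4.39 in wild type day 0, -3.86 and -1.90 in R141C day 0, -0.91 and -0.90 in wild type day 6, and -0.11 and 0.33 in R141C day 6. It rose by 3.48 ± 0.58 (SE) in wild type (adjusted p = 0.00776, limma) and by 2.99 ± 0.58 in R141C (adjusted p = 0.0183, limma). In R141C the call was lost without replicate 1 (adjusted p = 0.0543) or replicate 2 (adjusted p = 0.0736) of day 6 in limma, with rises of 3.21 and 2.77. R141C lay above wild type without overlap at both days, by 1.5 ± 0.58 at day 0 and 1.02 ± 0.58 at day 6.

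Among the 10 effectors that act on viral replication or on infected cells (Mx1, Mx2, Rsad2, Bst2, Isg20, Cmpk2, Rtp4, Xaf1, Eif2ak2 and Adar), Rtp4 differed most between genotypes. Rtp4, a receptor chaperone, had signals of -2.01 and -1.85 in wild type day 0, 0.10 and 0.30 in R141C day 0, -1.08 and -1.29 in wild type day 6, and 2.41 and 1.05 in R141C day 6 (probe at chr16:23613668-23613727, mm9). The genotypes did not overlap at either day, and replicates within a group differed most in R141C day 6. The difference was 2.13 ± 0.42 (SE) at day 0, or 4.38-fold (adjusted p = 0.785, limma), and 2.92 ± 0.42 at day 6. The change with day in R141C, 1.53 ± 0.42, had an adjusted p of 0.0539 in limma.

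Mx2, a dynamin-like GTPase, showed -5.18 and -4.67 in wild type day 0, -3.75 and -2.59 in R141C day 0, -2.94 and -3.57 in wild type day 6, and -1.13 and -1.97 in R141C day 6. It was higher in R141C than in wild type without overlap at both days, by 1.75 ± 0.48 (SE) at day 0 (adjusted p = 0.999, limma) and 1.70 ± 0.48 at day 6. In wild type it rose by 1.67 ± 0.48 (adjusted p = 0.0476, limma), a call that was lost with quantile normalization, the normexp background correction, the deposited normalized values and the replicate block. In R141C the change of 1.62 ± 0.48 had an adjusted p of 0.0682 in limma.

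Isg20, an exonuclease that degrades RNA, had signals on its brightest probe of -0.25 and -0.33 in wild type day 0, 0.53 and 1.53 in R141C day 0, 1.40 and 1.34 in wild type day 6, and 0.89 and 1.26 in R141C day 6. Both R141C arrays were above wild type at day 0, by 1.32 ± 0.34 (SE; adjusted p = 0.999, limma), and both were below it at day 6, by -0.30 ± 0.34. In wild type Isg20 rose by 1.66 ± 0.34 (adjusted p = 0.0157, limma), whereas the change in R141C was 0.04 ± 0.34 with overlapping groups. Its other probe, also above background on all 8 arrays, lay the other way at day 6, with -1.14 and -1.24 in R141C above -1.71 and -1.87 in wild type (a difference of 0.60, against 1.58 at day 0). On that probe the change with day in wild type was 0.43, and the wild-type call was lost when the probes were averaged. The position of Isg20 at day 6 thus depends on the probe.

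Rsad2 encodes viperin, which makes a chain-terminating nucleotide. Its signals were -6.06 and -6.54 in wild type day 0, -7.04 and -7.02 in R141C day 0, -4.19 and -3.73 in wild type day 6, and -4.25 and -3.04 in R141C day 6. The probe was above background on the 4 day 6 arrays and on none of the day 0 arrays. Day 6 was therefore at least 4.97-fold higher in wild type and at least 6.2-fold higher in R141C. No p is given, because the gene entered the test only through the day 6 groups. The genotypes overlapped at day 6.

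Xaf1, a pro-apoptotic partner of XIAP, gave 0.03 and 1.76 in wild type day 0, 0.79 and 1.1 in R141C day 0, -2.34 and -2.44 in wild type day 6, and 0.03 and -1.27 in R141C day 6. Wild type day 6 was the low group. Xaf1 fell by 3.29 ± 0.62 (SE) in wild type (adjusted p = 0.0118, limma). The call was lost without replicate 1 (adjusted p = 0.0589) or replicate 2 (adjusted p = 0.0684) of wild type day 6 in limma. In R141C the change was -1.56 ± 0.62 (adjusted p = 0.143, limma), and at day 6 the genotypes differed by 1.77 ± 0.62 without overlap. Of the other effectors, Bst2 (tetherin) differed by 1.36 ± 0.45 and Cmpk2, a nucleotide kinase, by 0.77 ± 0.33 at day 6, both without overlap. Eif2ak2 (PKR, which halts translation) differed by 0.06 ± 0.45 with overlap. For Adar, which edits double-stranded RNA, the probes went opposite ways at day 6, both without overlap. Its brightest probe differed by 0.69 ± 0.30, and its other probe by -0.19, with 1.03 and 0.97 in R141C against 1.26 and 1.11 in wild type.

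The Ifitm proteins block fusion of viral envelopes at membranes, and Ifitm1 and Ifitm3 are also known from germ cells and embryonic cells. Ifitm1 showed 6.13 and 4.50 in wild type day 0, 5.96 and 5.49 in R141C day 0, 5.16 and 5.01 in wild type day 6, and 5.88 and 5.49 in R141C day 6. Wild type day 0 overlapped each of the other groups, while at day 6 R141C lay above wild type by 0.60 ± 0.51 (SE). Ifitm2 gave 4.74 and 5.06 in wild type day 0, 4.71 and 4.24 in R141C day 0, 4.42 and 4.40 in wild type day 6, and 4.63 and 4.79 in R141C day 6. R141C was below wild type at day 0 by 0.43 ± 0.23 (SE; adjusted p = 0.999, limma) and above it at day 6 by 0.30 ± 0.23. Ifitm3 fell in wild type by 2.17 ± 0.42 (adjusted p = 0.0127, limma), a call lost in limma without replicate 1 of wild type day 0 and without either wild-type day 6 array, and was 0.84 ± 0.42 higher in R141C than in wild type at day 6 without overlap.

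Sensors of viral nucleic acid formed a further group, with Ddx58 (RIG-I), Ifih1 (MDA5), Dhx58 (LGP2), Zbp1, which binds Z-form nucleic acid, and Trim25, a ubiquitin ligase that acts on RIG-I. All 5 had a positive difference at day 6, as had 58.1% of all genes. In 4 the groups did not overlap, as in 27.8% of all genes in that direction. Zbp1 had signals of -1.14 and -1.41 in wild type day 0, -0.01 and -0.62 in R141C day 0, -2.79 and -3.24 in wild type day 6, and 0.44 and -1.74 in R141C day 6. The 2 R141C day 6 arrays were the farthest apart, yet both lay above wild type, with a mean difference of 2.37 ± 0.66 (SE). At day 0 the difference was 0.96 ± 0.66 (adjusted p = 0.999, limma).

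Ifih1 showed -2.25 and -2.53 in wild type day 0, -1.14 and -0.37 in R141C day 0, -2.60 and -2.87 in wild type day 6, and -0.32 and -1.53 in R141C day 6. The genotypes were apart at both days, by 1.64 ± 0.44 (SE) at day 0 (adjusted p = 0.999, limma) and by 1.81 ± 0.44 at day 6. When the gene's probes were averaged the day 6 difference was 0.99, but the other probe was above background on 0 arrays. Ddx58 gave 2.39 and 2.71 in wild type day 0, 2.72 and 2.46 in R141C day 0, 0.61 and 0.48 in wild type day 6, and 1.04 and 0.74 in R141C day 6. It fell with differentiation in both genotypes, by 2.0 ± 0.22 in wild type (adjusted p = 0.00197, limma) and 1.70 ± 0.22 in R141C (adjusted p = 0.00526, limma). On its brightest probe Trim25 lay between 6.02 and 6.87 on all arrays, with a day 6 difference of 0.39 ± 0.28. Its other probe, above background on all 8 arrays, gave a day 6 difference of 0.73. On that probe the change with day was -0.88 in wild type and 0.01 in R141C. Dhx58 differed by 0.40 ± 0.29 at day 6 with overlapping groups.

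The transcription factors of the response were Irf1, Irf7, Irf9 and Stat2. Irf7, which drives interferon genes, had signals of -5.98 and -6.46 in wild type day 0, -6.15 and -5.95 in R141C day 0, -7.41 and -6.58 in wild type day 6, and -4.76 and -5.12 in R141C day 6. Only the R141C day 6 arrays were above background, so the day 6 difference was at least 1.34-fold. The measured difference of the means was 2.05 ± 0.33 (SE), and 0.41 with normexp. In R141C, day 6 was at least 2.16-fold above day 0. No p is given, because Irf7 entered the test only through R141C day 6.

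Irf1, which also answers interferon gamma, showed 4.37 and 4.23 in wild type day 0, 5.27 and 5.25 in R141C day 0, 3.46 and 3.15 in wild type day 6, and 5.13 and 3.82 in R141C day 6. R141C lay above wild type without overlap at both days, by 0.95 ± 0.41 (SE) at day 0 (adjusted p = 0.999, limma) and 1.17 ± 0.41 at day 6. Irf9 and Stat2, parts of the complex that binds the response element, differed by 0.19 ± 0.18 and 0.09 ± 0.24 at day 6. Their arrays overlapped between genotypes at day 0, and neither passed the test for a change with day in either genotype (limma).

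Antigen presentation was represented by the immunoproteasome subunits Psmb8 and Psmb9, the peptide transporter Tap1 and B2m, the light chain of class I molecules. Psmb8 (probe at chr17:34337771-34337830, mm9) gave 1.34 and 1.83 in wild type day 0, 3.01 and 2.78 in R141C day 0, 0.64 and 0.04 in wild type day 6, and 3.65 and 1.66 in R141C day 6. The genotypes were apart at both days, by 1.31 ± 0.61 (SE) at day 0 (adjusted p = 0.999, limma) and by 2.31 ± 0.61 at day 6. Psmb9 differed by 1.71 ± 0.59 at day 6 without overlap, and by 0.27 ± 0.59 at day 0 with overlap. Tap1 differed by 0.36 ± 0.34 at day 6 without overlap. B2m, at 3.76 and 3.30 in wild type day 0, 3.73 and 4.72 in R141C day 0, 4.16 and 4.21 in wild type day 6, and 3.70 and 4.17 in R141C day 6, overlapped between genotypes at both days.

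Guanylate-binding proteins attack the vacuoles of intracellular pathogens, and Gbp2 and Gbp3 combined a genotype difference with a fall over time. Gbp2 (probe at chr3:142300719-142300778, mm9) showed 2.99 and 3.17 in wild type day 0, 4.15 and 4.47 in R141C day 0, 0.43 and -0.04 in wild type day 6, and 2.47 and 1.69 in R141C day 6. The 4 groups did not overlap, with R141C day 0 highest and wild type day 6 lowest. R141C was higher by 1.23 ± 0.32 (SE) at day 0 (adjusted p = 0.999, limma) and by 1.89 ± 0.32 at day 6. Gbp2 fell by 2.89 ± 0.32 in wild type (adjusted p = 0.00192, limma) and by 2.23 ± 0.32 in R141C (adjusted p = 0.00691, limma).

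Gbp3 gave 1.56 and 1.67 in wild type day 0, 2.85 and 3.07 in R141C day 0, -0.25 and -0.40 in wild type day 6, and 2.16 and 0.73 in R141C day 6. R141C was above wild type at both days, by 1.35 ± 0.43 (SE) at day 0 (adjusted p = 0.999, limma) and 1.77 ± 0.43 at day 6. In wild type Gbp3 fell by 1.94 ± 0.43 (adjusted p = 0.0214, limma), and in R141C the change was -1.52 ± 0.43 (adjusted p = 0.0616, limma). The ADP-ribosyltransferase relatives Parp9 and Parp14 were higher in R141C without overlap at both days, by 0.75 ± 0.39 and 0.66 ± 0.38 at day 0 and by 1.39 ± 0.39 and 1.53 ± 0.38 at day 6. Parp14 fell in wild type by 1.6 ± 0.38 (adjusted p = 0.0259, limma).

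Ifi27, Ifi35, Ifi44 and Lgals3bp are induced genes with less settled roles. Ifi27 (probe at chr12:104678353-104678412, mm9) had signals of -2.28 and -1.73 in wild type day 0, -0.99 and -1.11 in R141C day 0, -1.59 and -1.93 in wild type day 6, and 2.11 and 0.48 in R141C day 6. R141C day 6 stood far above the other groups. The difference between genotypes was 3.05 ± 0.51 (SE) at day 6 and 0.96 ± 0.51 at day 0 (adjusted p = 0.999, limma). In R141C Ifi27 rose by 2.35 ± 0.51 (adjusted p = 0.0266, limma), and by 1.53 without replicate 1 of day 6. That call was lost in limma without replicate 1 (adjusted p = 0.108) or replicate 2 (adjusted p = 0.102) of R141C day 0, and without either wild-type day 6 array (adjusted p = 0.0522 and 0.0528). In wild type the change was 0.25 ± 0.51 with overlapping groups.

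Lgals3bp, a secreted glycoprotein, showed -1.86 and -2.92 in wild type day 0, -1.67 and -2.19 in R141C day 0, 0.65 and 0.40 in wild type day 6, and 1.80 and 1.5 in R141C day 6. Both genotypes overlapped at day 0 and were apart at day 6, by 1.13 ± 0.38 (SE). It rose by 2.92 ± 0.38 in wild type (adjusted p = 0.00339, limma) and by 3.58 ± 0.38 in R141C (adjusted p = 0.00262, limma). Ifi35 was higher in R141C without overlap at both days, by 0.95 ± 0.42 and 1.41 ± 0.42.

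**Figure D4:**
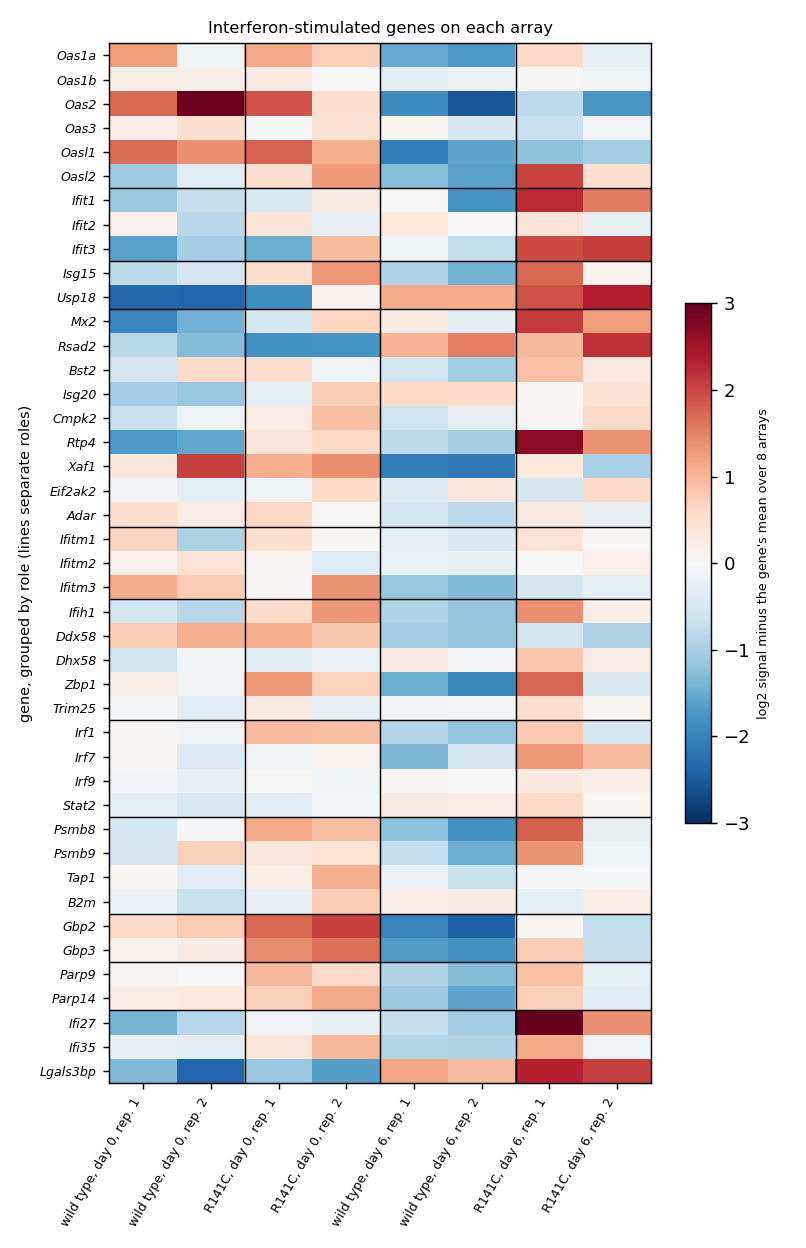
Signal of the 43 tested genes on each of the 8 arrays, as log2 signal minus the gene's own mean over the arrays (red above, blue below), with genes in rows grouped by role and arrays in columns grouped by genotype and day. Rtp4, Ifi27, Ifit1 and Oasl2 are red in the R141C day 6 columns, more so in replicate 1, and Oas2, Gbp2 and Xaf1 are bluest in the wild-type day 6 columns.

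**Figure D5:**
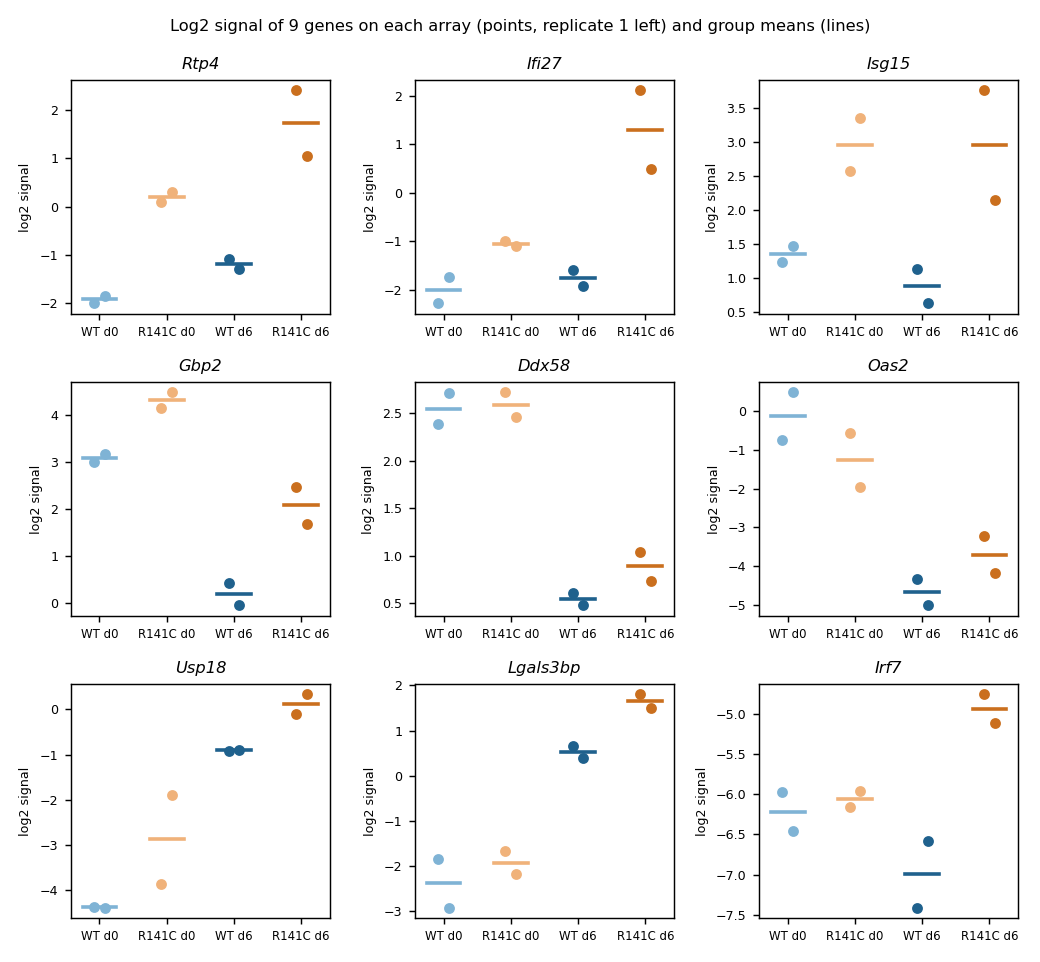
Log2 signal of 9 of the genes on each array (points, replicate 1 on the left) with group means (lines); each panel has its own scale, so heights cannot be compared between genes. Isg15 separates by genotype at both days, Ddx58, Oas2 and Lgals3bp by day in both genotypes, and Rtp4, Usp18 and Gbp2 by genotype at both days and by day in both genotypes.

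Where a gene had more than 1 probe above background on all arrays, the probes could be set against each other. This held for 10 genes, and their probes had the same sign of the difference in 8 at day 6 (all but Isg20 and Adar) and 7 at day 0 (all but Ddx58, Oas1b and Trim25). For the change with day the probes had the same sign in 8 of 10 in each genotype. The exceptions were Oas1b and Trim25 in wild type, and Oas1b and Isg20 in R141C.

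The steps upstream of these genes were read from a list of 73 pathway genes that are not among the 46; 67 had a probe by name and 62 were tested. Between genotypes none passed at day 6 (0.0657% of all genes did in limma). At an unadjusted p under 0.05 in limma, 13 were higher at day 6, as were 1333 of the 25892 genes. At day 0 none passed (0% of all genes) and 10 were higher at that level, as were 594 of the 25892 genes. In wild type 7 rose and 8 fell with differentiation, and in R141C 2 rose and 3 fell, of the 62. Of all genes 11% rose and 12.9% fell in wild type, and 7.6% rose and 8.03% fell in R141C. Ifnb1, the type I interferon that is made first, was above background on 0 arrays, with signals between -7.68 and -6.97. None of the 5 tested interferon genes passed in any comparison, and at an unadjusted p under 0.05 in limma 1 was higher in R141C at day 6 and 1 lower with day in wild type. Ifna11 had the largest day 6 difference of the 5, at 1.01. It was above background on neither wild-type day 6 array (-5.61 and -6.10). The sizes of its day 6 difference and of its change in wild type are therefore not known.

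All 5 tested receptor genes had a positive change in both genotypes, of which 4 passed in wild type and 1 in R141C (Ifngr2, the signalling chain of the interferon gamma receptor, 1.28 ± 0.28 SE, adjusted p = 0.0285, limma). Ifnar1, a chain of the type I receptor, showed 1.09 and 0.42 in wild type day 0, 0.78 and 1.57 in R141C day 0, 2.16 and 2.28 in wild type day 6, and 1.45 and 1.80 in R141C day 6. It rose in wild type by 1.46 ± 0.35 (adjusted p = 0.0253, limma), and was lower in R141C than in wild type at day 6 by 0.60 ± 0.35 without overlap (adjusted p = 0.690, limma). Its partner Ifnar2 lay between 0.81 and 1.70 on all arrays, with genotype differences of 0.14 ± 0.19 at day 6 and -0.06 ± 0.19 at day 0.

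Of the kinases bound to the receptors, Jak1 lay between 2.0 and 2.82 and Tyk2 between -0.48 and 0.54, with overlapping genotypes at both days and no call in any comparison. Jak2 was higher in R141C at day 0 without overlap, by 0.99 ± 0.35 (SE; adjusted p = 0.999, limma), overlapped at day 6, and rose by 1.56 ± 0.35 with day in wild type (adjusted p = 0.0221, limma). Irf3, the factor that starts interferon transcription, and Mavs, the adaptor of the RNA sensors, differed by -0.02 ± 0.19 and -0.10 ± 0.22 (SE) at day 6, both with overlap.

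Beyond these, Uba7, the enzyme that activates Isg15 for conjugation, rose by 4.67 ± 0.61 (SE) in wild type (adjusted p = 0.00335, limma) and by 4.77 ± 0.61 in R141C (adjusted p = 0.00477, limma). Irf2, which competes with Irf1, rose in wild type by 2.51 ± 0.51 (adjusted p = 0.0154, limma). Socs3, a feedback inhibitor of Jak kinases, fell in wild type by 2.33 ± 0.42 (adjusted p = 0.00986, limma). Nlrc5, the activator of class I genes, fell by 2.28 ± 0.44 in wild type (adjusted p = 0.0127, limma) and by 2.51 ± 0.44 in R141C (adjusted p = 0.0135, limma), and Ikbke, a kinase that acts on Irf3, fell in R141C by 2.04 ± 0.35 (adjusted p = 0.0122, limma). All 9 tested antigen presentation genes outside the 46, among them H2-K1, H2-D1 and Tapbp, had a positive genotype difference at both days. Of all genes, 30.6% did so. Medians were 0.71 at day 0 and 0.61 at day 6, against 0.0046 and 0.07 over all genes. None of the 9 passed the test in limma. At an unadjusted p under 0.05 in limma, 5 were higher at day 0 and 3 at day 6, as were 594 and 1333 of the 25892 genes.

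The cultures also differed in markers of cell types. The signals of 7 cardiomyocyte markers, on the linear scale relative to the 75th percentile, summed to 201 and 251 in wild type day 6 and to 4.84 and 67.5 in R141C day 6. By group means all 7 were lower in R141C at day 6, as were 10837 of the 25892 genes. In 6 of them the groups did not overlap, as in 16.5% of all genes in that direction, and Actn2 overlapped. The lower of the 2 R141C sums belonged to replicate 1, in which the interferon-stimulated genes were higher. The sum of 7 endothelial markers was 15.7 in that culture, 8.56 in the other R141C culture and 9.50 and 9.63 in wild type. Kdr was the brightest of the 7 in that culture, at 3.36 on the log2 scale, and weighs most in its sum. By group means, 3 of the 7 were higher and 4 lower in R141C at day 6. Visceral endoderm markers (6 genes) summed to 48.7 and 118 in R141C against 67.1 and 67.2 in wild type, 6 erythroid markers to 312 and 169 against 247 and 558, and 8 fibroblast and feeder markers to 22.8 and 73.3 against 29.4 and 48.7. The part of these cell types in the day 6 difference was not tested.

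Leukocytes and macrophages express many interferon-stimulated genes, and their 10 markers summed to 12.5 and 11.7 in R141C day 6 against 10.4 and 9.56 in wild type day 6. Of the 9 tested, 7 were higher in R141C at day 6, as were 58.1% of all genes. In 5 of them the groups did not overlap (Csf1r, Cd68, Tyrobp, Fcer1g and Cd52), as in 27.8% of all genes in that direction. Cd52 differed most, by 1.48 ± 0.40 (SE, adjusted p = 0.401 in limma). Spi1 was above background on 0 arrays, and Ptprc was above background on neither wild-type day 6 array. At day 0 the sums were 12.2 and 15.9 in R141C and 14.9 and 14.2 in wild type, so the groups overlapped there. The part of these cells in the result was not tested. Markers of undifferentiated cells summed to 264 and 177 in R141C and 255 and 355 in wild type at day 0, and to 37.0 and 30.8 against 32.4 and 23.1 at day 6.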

How the data were processed

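RNA of 8 cultures was labelled with Cy3 and hybridised to Agilent arrays of 1 colour; per the file headers, Feature Extraction 11.5.1.1 read them (the submitters' processing notes name 10.5.1.1) and probe positions are on mm9. The authors deposited scanner files with processed signal intensity per spot, corrected for background by that software, and flags for spots above background, scored 0 or 1 per the file headers. They also deposited a table of log2 values of the same arrays, which correlated with the scanner values at 0.9995 or more over 36321 probes. Its values rise with the signal, with array medians of 8.99 to 9.04; how it was scaled between arrays is not given in the sources used here, and it served as an alternative.

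Control spots and outliers were left out, spots of a probe were averaged, and log2 of the intensity was taken minus each array's 75th percentile. Each gene was read from its brightest probe and updated to current RefSeq names where an accession matched (2030 probes renamed). Limma 3.58.1 in R 4.3.3 fitted 4 group means over the 8 arrays (4 residual and 2.7 prior degrees of freedom), two-sided, with Benjamini-Hochberg adjustment over 25892 genes and a threshold of 0.05. The procedure was tested on simulated data. Precision is limited by 2 arrays a group.

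The members, the pathway and marker lists and the tests were chosen with earlier results of these data known. Array values are given for the 12 members with the largest day 6 genotype difference without overlap, up to 8 that passed with the largest change per differentiation contrast, the 6 with the smallest p at day 0 and the 6 brightest; the pathway genes named are 9 set ones, of which 1 is not reported here, and up to 4 that passed with the largest change per comparison. Promoters were read from the RefSeq table. Alternatives changed the scaling, background correction, filter, probe choice, fit and arrays.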

Additional observations from a re-analysis of the deposited data

Results flagged for a closer look

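For 3 genes both arrays of one group moved one way and both arrays of the other group the opposite way; the differences between these effects were not tested. Irf7 was lower at day 6 than at day 0 by -0.77 in wild type and higher by 1.11 in R141C on the log2 scale, with only the R141C day 6 arrays above background; wild type was not above background on either day, so no direction is read from its value. Isg20 was higher in R141C than in wild type at day 0 by 1.32 and lower at day 6, by -0.30, on its brightest probe only: its other probe, above background on all 8 arrays, was higher in R141C at day 6, by 0.60. Ifitm2 was lower in R141C at day 0, by -0.43, and higher at day 6, by 0.30.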

How the results depend on the processing

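With 2 cultures a group, 1 array can make or end a call. Under the other scalings, background correction, filters, probe choice and fits, the count of the genes that passed stayed within 1.5 times its value with 1 exception: 13 passed for day 6 against day 0 in R141C with normexp, adding Ifit1, Ifit3, Mx2, Rtp4 and Gbp3 to the 8. Leaving out 1 array in turn, the genes that passed numbered 0 between genotypes at day 0. They numbered 6 to 20 with differentiation in wild type and 7 to 8 in R141C. The contrast between genotypes at day 6 chose the genes, so no count of calls is given for it. With 1 array left out in turn, medians between genotypes ran from 0.95 to 1.44 at day 6 and from 0.45 to 0.73 at day 0. Medians of the change with differentiation ran from -0.53 to -0.25 in wild type and from -0.30 to 0.35 in R141C. The sign in R141C turned without R141C day 6 replicate 2. Counts of genes with a positive difference, chosen after seeing the data, were 38 to 40, 31 to 35, 15 to 16 and 18 to 25. Shifting each array to its median moved the median change of all genes in wild type from -0.12 to 0.0044 and that of the 43 genes from -0.47 to -0.35, with 15 calls as before. No gene given array by array turned direction in the comparison it was chosen for. Replicate numbers are not stated to mark a shared culture or batch, and deviations of same-numbered arrays correlated at -0.136 to 0.339 between groups; with the replicate block 15 genes passed in wild type, 14 of them shared, and 7 in R141C, where Oas2 was lost (adjusted p = 0.0523, limma). Without a filter, or fitted to the 4 arrays compared, Oas2 in R141C had an adjusted p of 0.0614 and 0.0657 (limma). The causes were not tested. Signals close to background limit Ifit1, Irf7, Rsad2 and Oasl1.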

Other observations

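Among further induced genes of the pathway list, chosen here after their values were seen, Trim30a and Cxcl10 stood out at the ends of the day 6 range. Trim30a, a relative of the Trim ligases, was higher in R141C than in wild type at day 6 by 2.61 on the log2 scale (adjusted p = 0.281, limma), with 1 of 2 wild-type arrays above background. Cxcl10, a chemokine that attracts T cells, was higher in R141C at day 0 by 1.64 and lower at day 6, by -1.30, without overlap at either day (adjusted p = 0.999 and 0.618, limma). Irgm1, a GTPase that acts at vacuoles, was higher in R141C at both days without overlap, by 1.17 at day 0 (adjusted p = 0.539, limma) and by 1.41 at day 6 (adjusted p = 0.102, limma).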
